A study of Mus musculus with 23 samples.

Results

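The genes described here are 10 components of the bone morphogenetic protein (BMP) pathway, 10 of the 23369 gene names in the deposited RNA-seq tables. They comprise the ligand genes Bmp2, Bmp4, Bmp7 and Bmp8b, the ID response genes Id1, Id2, Id3 and Id4, and the inhibitory SMAD genes Smad6 and Smad7. They were chosen by name and not by a measured value of theirs, though with earlier results of these data known. Expression was measured in mouse embryonic stem cells (ESCs) that the labels call MS12 KDM2Bfl/fl. Both Kdm2b alleles carry loxP sites around the exon for most of the ZF-CxxC DNA-binding domain, and the cells stably express a tamoxifen-inducible Cre recombinase. The 3 samples labelled untreated and the 3 labelled as treated with 4-hydroxytamoxifen for 72 hr share this genotype and the Cre transgene. All samples came from cells at passages p10 to p20 in medium with 15% serum and 10 ng/mL LIF. The cells were grown on mouse embryonic fibroblast feeders and left to settle overnight without them before treatment. The sample labels give the dose as 800 nM, whereas the text of the series gives 800 µM. Samples without an inducible Cre were not analysed here, so removal of the exon, Cre activity and the drug itself cannot be told apart. Groups follow the sample labels, and the names of the deposited files read the opposite way for all 6 samples. With the file names as groups, all differences would have the same size and the opposite direction. RNA was taken from whole cultures, and therefore fewer cells of a type and less RNA per cell cannot be told apart in any value below.

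BMP ligands are secreted dimers that bring together type I and type II serine/threonine kinase receptors. The active receptors phosphorylate SMAD1, SMAD5 and SMAD9, which enter the nucleus with SMAD4 and induce a small set of direct target genes. The ID genes are the best known of these targets, and Smad6 and Smad7 encode inhibitory SMADs that feed back on the receptors. ID proteins carry a helix-loop-helix domain without a DNA-binding region, and they hold E proteins such as TCF3 away from DNA. In mouse ESCs grown in serum, BMP signaling through ID proteins is known to act beside LIF in holding back neural differentiation.

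KDM2B binds nonmethylated CpG dinucleotides through the ZF-CxxC domain, and the promoter sequences of the members are therefore shown for their CpG content. RefSeq promoter windows (250 bases before to 50 bases after the annotated start, GRCm38.p6) were at hand for 6 of the 10 members, Bmp4, Bmp8b, Id2, Id3, Id4 and Smad6. Windows of Bmp2, Bmp7, Id1 and Smad7 were not used here. The 3 windows printed belong to Id2, the member with the largest difference, to Id3, which differed in the other direction, and to Smad6, which holds a SMAD palindrome. Capitals mark GGCGCC, a GC-rich element found in BMP-responsive enhancers, and GTCTAGAC, the palindromic SMAD-binding element. The Id2 window is chr12:25096043-25096342 on the minus strand, that of Id3 is chr4:136143572-136143871 on the plus strand and that of Smad6 is chr9:64022010-64022309 on the minus strand.
Id2: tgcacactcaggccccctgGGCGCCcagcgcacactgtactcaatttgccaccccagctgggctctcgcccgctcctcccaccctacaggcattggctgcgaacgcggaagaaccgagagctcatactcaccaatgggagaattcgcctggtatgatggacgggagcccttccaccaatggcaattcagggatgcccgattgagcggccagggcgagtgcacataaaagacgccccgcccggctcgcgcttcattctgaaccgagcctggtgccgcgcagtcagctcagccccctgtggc
Id3: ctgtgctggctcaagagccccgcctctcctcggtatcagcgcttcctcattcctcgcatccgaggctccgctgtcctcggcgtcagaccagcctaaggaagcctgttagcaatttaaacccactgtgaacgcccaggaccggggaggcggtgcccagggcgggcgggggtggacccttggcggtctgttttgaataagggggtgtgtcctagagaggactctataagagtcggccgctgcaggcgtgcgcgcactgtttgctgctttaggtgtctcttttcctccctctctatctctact
Smad6: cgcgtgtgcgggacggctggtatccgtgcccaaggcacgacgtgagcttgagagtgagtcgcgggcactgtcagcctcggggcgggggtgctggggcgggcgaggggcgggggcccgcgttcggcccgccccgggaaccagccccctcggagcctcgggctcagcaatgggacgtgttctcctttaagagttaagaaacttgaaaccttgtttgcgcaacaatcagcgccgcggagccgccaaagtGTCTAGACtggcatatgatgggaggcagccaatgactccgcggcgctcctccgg
These windows held 21 CpG dinucleotides in Id2, 19 in Id3 and 31 in Smad6, against a median of 7 over all 32851 windows. Id4 held 39, Bmp8b 23 and Bmp4 12. Of the 6 windows, 5 were CpG-rich (CpG count relative to that given by base composition 0.6 or more, GC content 55% or more), as were 30.3% of all windows. Bmp4 missed this criterion with a ratio of 0.419. The 6 motifs searched on both strands, with no overlap among their matches in the printed windows, were the GC-rich element, the palindrome, a further GC-rich element, a pair of E-box forms and a TATA box. GGCGCC was present in Id2, starting at position -231 from the annotated start, and in Id4, and in 11.9% of all windows. GTCTAGAC was present in Smad6, starting at position -4, and in 70 windows overall (0.213%). The further element, GCCGNCGC, was present in Id4 and in 9.76% of all windows. The E-box form CACGTG was present in Bmp4 (7.15% of all windows) and the form CAGCTG in Id2 (16.3% of all windows). The TATA box letters TATAAA were in none of the 6 member windows and in 13.6% of all. Id3 and Bmp8b held none of the 6 motifs in this window, which says only that these letters are not in it. ChIP-seq values for KDM2B, RING1B and SUZ12 were not analysed here, and so occupancy at these promoters was not measured.

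The deposited unit is FPKM, a fragment count scaled to the length of the gene model and to the size of the library, which can be compared between genes. Summed FPKM per sample ran from 549379.4 to 1045707.3, and loci under 300 bp held 23.9% to 67.7% of it. That part was 23.9% and 25.6% in the replicate 1 samples and 67.7% and 61.6% in the replicate 2 samples (untreated, then tamoxifen). Comparisons between samples rest on the deposited scaling, and other scalings are given below. Read totals are not in these tables and depth is therefore unknown. Between 11571 and 11980 rows per sample reached 1 FPKM. All 10 members passed the filter for testing (at least 0.5 FPKM in at least 3 of the 6 samples), Bmp2 with exactly 3 samples. Pou5f1, which encodes the ESC factor OCT4, lay between 369 and 832 FPKM, and the summed level of 10 ESC markers was 1576 to 1929 FPKM in the untreated and 1728 to 2263 FPKM in the tamoxifen samples. Kdm2b itself had 25.4 ± 3.36 FPKM (SD, n = 3) in untreated and 22.3 ± 2.6 FPKM in tamoxifen samples. This value covers the whole gene and does not resolve the floxed exon, so it does not check the labels.

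In these cells Id1, Id2, Id3 and Smad7 had group means of 16.0 to 40.1 FPKM, and the ligands and Id4 were lower. In the untreated samples the order of mean FPKM was Id2, Id3, Id1, Smad7, Bmp4, Smad6, Bmp8b, Id4, Bmp7 and Bmp2. The ranges of neighbours in this order overlapped except between Smad7 and Bmp4, Bmp4 and Smad6, and Bmp7 and Bmp2. In the tamoxifen samples Id3 stood alone at the top, with no overlap with Smad7 below it. Smad7, Id1 and Id2 followed with overlapping ranges, and then Bmp4, Id4, Smad6, Bmp8b, Bmp7 and Bmp2. The mean of Id2 came first in the untreated samples through replicate 3, since Id3 was the higher of the pair in untreated replicates 1 and 2. In the tamoxifen samples Id2 was below Id3 in all 3 replicates, and in replicate 3 it was above Smad7 and Id1. The plot of FPKM by sample shows these levels with each replicate number joined across the groups.

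**Figure D1:**
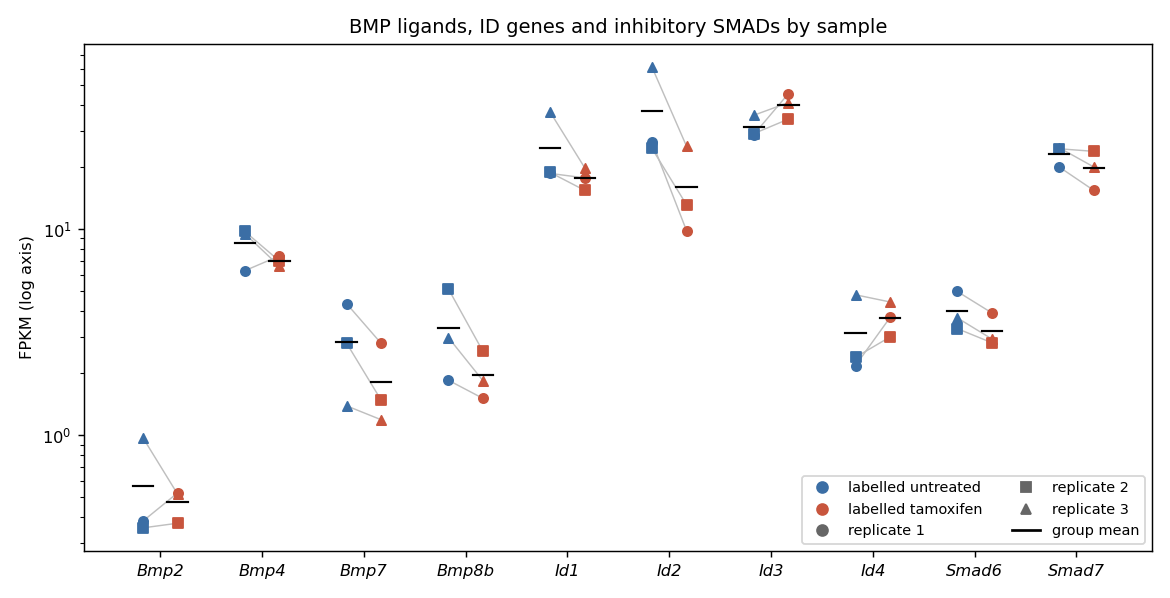
FPKM of the 10 members in each sample (log axis), with untreated samples in blue, tamoxifen samples in red, marker shape for the replicate number, grey lines joining samples of the same number and black bars for the mean of 3 samples. Id2 spans 24.6 to 61.0 FPKM in untreated and 9.82 to 25.2 FPKM in tamoxifen samples, and the groups overlapped for each of the 10 genes.

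Tamoxifen is meant to remove the domain through which KDM2B brings its PRC1 complex to CpG islands. The comparison of samples labelled tamoxifen and untreated cannot tell this removal from Cre activity or the drug. Id2 was the member that differed most, with a mean of 37.4 FPKM untreated and 16.0 FPKM after tamoxifen, whereas Id3 had 31.1 FPKM untreated and 40.1 FPKM after tamoxifen. Without a block, 0 of the 10 members passed an adjusted p of 0.05 in either direction (limma, Benjamini-Hochberg over 12997 genes), and 1 of them, Id2, had an unadjusted p under 0.05. Of all genes tested, 0.0308% passed in this fit, 0.0231% higher and 0.00769% lower. Deviations from the group means were shared by samples of 1 replicate number. When this number was entered as a block, 1 of the 10 members passed, again Id2, in the lower direction. With the block, 10.4% of all genes tested passed, 6.06% lower and 4.33% higher, so that 1 of 10 is close to the background. The groups did not overlap for 0 of the 10 members and for 8.49% of all genes. The log2 fold change was below 0 for 8 of the 10 members and for 52.8% of all genes, and its median was -0.274 over the members and -0.019 over all genes. Within replicate numbers, 6 members were lower in 3 of 3, as were 28.2% of all genes. Id3 was higher in 3 of 3, as were 24.8% of all genes, and 3 members were mixed.

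**Figure D2:**
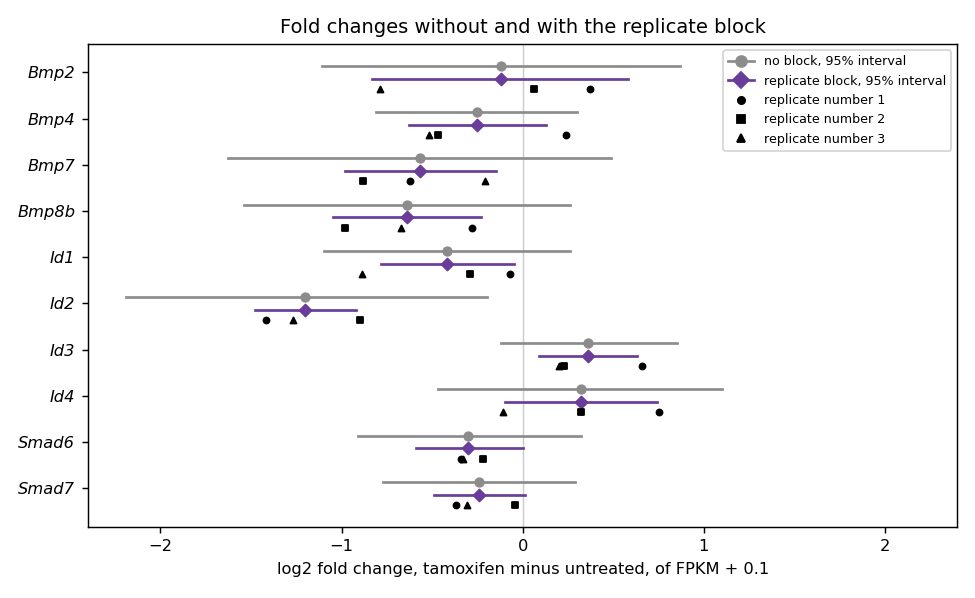
log2 fold change (tamoxifen minus untreated) of each member with its 95% interval from limma, in grey without and in purple with the replicate block, and as small black symbols the difference within each replicate number. The interval of Id2 lies below 0 in both fits, from -2.19 to -0.2 without and from -1.48 to -0.92 with the block. Those of Bmp2, Bmp4, Id4, Smad6 and Smad7 include 0 in both.

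Among the ligands, Bmp4 is the main BMP of the early mouse embryo, where it acts in mesoderm and germ cell formation. It lies on chromosome 14 of mm9, the build of all gene positions given below, from 47003196 to 47010274 and made up 48.8% to 65.1% of the summed FPKM of the 4 ligands. Its FPKM was 6.28, 9.74 and 9.51 in untreated replicates 1 to 3 and 7.41, 7.0 and 6.6 in tamoxifen replicates 1 to 3. The tamoxifen sample was the higher one for replicate number 1 and the lower one for numbers 2 and 3, and the difference of -0.25 (log2, standard error 0.24, limma adjusted p = 0.999) was within the spread between replicates. With the block the limma adjusted p was 0.334. Leaving out replicate number 1 from that fit gave -0.5 (adjusted p = 0.0121), whereas leaving out number 2 gave -0.14 (adjusted p = 0.73) and number 3 gave -0.12 (adjusted p = 0.751).

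Bmp8b, on chromosome 4 from 122782408 to 122803334, is known for its part in germ cell formation beside Bmp4. It had 1.85, 5.13 and 2.98 FPKM untreated and 1.51, 2.55 and 1.84 FPKM after tamoxifen. Replicate 2 was the highest in both groups, and each tamoxifen sample was below its partner. The difference of -0.64 (log2, standard error 0.39, limma adjusted p = 0.999) had an adjusted p of 0.0586 with the block. It passed with the block when a pseudocount of 1 was used (adjusted p = 0.0483), when loci under 300 bp were left out and samples scaled to TPM (adjusted p = 0.0331), or when replicate number 1 was left out (adjusted p = 0.00349, all from limma). It did not pass with the block and quantile normalization (adjusted p = 0.144), without replicate number 2 (adjusted p = 0.336) or without number 3 (adjusted p = 0.125). Without untreated replicate 2 and without a block the difference was -0.28.

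Bmp7, on chromosome 2 from 172693513 to 172765822, acts in kidney and eye development. Its FPKM was 4.35, 2.8 and 1.39 untreated and 2.79, 1.48 and 1.19 after tamoxifen. Replicate 1 was the highest and replicate 3 the lowest in both groups, a spread of 1.58 on the log2 scale within the untreated samples. Bmp7 differed by -0.57 (log2, standard error 0.46, limma adjusted p = 0.999) and had an adjusted p of 0.0838 with the block, and it was -0.2 without untreated replicate 1. Bmp2, on chromosome 2 from 133377895 to 133388632, is a close relative of Bmp4 with a role in heart and bone. It was the lowest member with 0.384, 0.356 and 0.973 FPKM untreated and 0.526, 0.375 and 0.519 FPKM after tamoxifen. Untreated replicate 3 was the highest sample of Bmp2. For Bmp2 the log2 fold change was -0.12, with a 95% interval from -0.83 to 0.58 in the fit with the block, and without tamoxifen replicate 2 it was 0.01. Such an interval leaves room for a difference in either direction.

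Among the ID genes, Id2 lies on chromosome 12 from 25778664 to 25780957, and in ESCs and many progenitors its product antagonises E proteins. Its FPKM was 26.5, 24.6 and 61.0 in untreated replicates 1, 2 and 3 and 9.82, 13.1 and 25.2 in tamoxifen replicates 1, 2 and 3. Replicate 3 was the highest in both groups, and tamoxifen replicate 3 just exceeded untreated replicate 2, so that the groups overlapped. For Id2 the log2 fold change was -1.2 (standard error 0.44, limma adjusted p = 0.825), smaller than the spread within the untreated group, which was 1.31 on the log2 scale from lowest to highest. Each tamoxifen sample was below its partner, by a log2 difference of -1.42, -0.9 and -1.27 for numbers 1, 2 and 3. In the blocked fit Id2 fell to 0.436 of its untreated level, with a standard error of 0.12 on the log2 scale and an adjusted p of 0.00351 (limma). Without untreated replicate 3 the unblocked log2 fold change was -0.78, and without tamoxifen replicate 3 it was -1.58. With the block it stayed between -1.09 and -1.35 when replicate number 1, 2 or 3 was left out, each time past the threshold.

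Id3, on chromosome 4 from 135699737 to 135701307, encodes a close relative of ID1. It had 28.7, 29.0 and 35.6 FPKM in untreated replicates 1 to 3 and 45.3, 34.1 and 41.0 FPKM in tamoxifen replicates 1 to 3. Each tamoxifen sample was above its untreated partner, but tamoxifen replicate 2 lay below untreated replicate 3. Id3 differed by 0.36 on the log2 scale (standard error 0.21, limma adjusted p = 0.999), and with the block the limma adjusted p was 0.0874 and the 95% interval 0.09 to 0.63. The value was positive under each of the 26 alternatives tried and passed the threshold in none of them.

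Id1, on chromosome 2 from 152562010 to 152563146, is the classical readout of BMP signaling. It had 18.6, 18.8 and 36.9 FPKM in untreated replicates 1 to 3 and 17.7, 15.4 and 19.8 FPKM in tamoxifen replicates 1 to 3. Untreated replicate 3 stood far above the other 5 samples, which lay between 15.4 and 19.8 FPKM. For Id1 the log2 fold change was -0.42 (standard error 0.3, limma adjusted p = 0.999; adjusted p = 0.127 with the block), and without untreated replicate 3 it was -0.09. The blocked fit gave -0.59 without replicate number 1 (limma adjusted p = 0.00841), -0.48 without number 2 (adjusted p = 0.264) and -0.18 without number 3 (adjusted p = 0.504). Id4, on chromosome 13 from 48356796 to 48359405, is the ID gene best known from the nervous system and was the lowest of the family here. Its FPKM was 2.18, 2.39 and 4.8 untreated and 3.73, 3.0 and 4.43 after tamoxifen, higher in replicate numbers 1 and 2 and lower in number 3. The difference of 0.32 (log2, standard error 0.34, limma adjusted p = 0.999) became 0.67 without untreated replicate 3 and 0.11 without untreated replicate 1.

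Because ID proteins share partners, the make-up of their summed expression was also described. The sum of the 4 ID genes was 75.9, 74.7 and 138 FPKM in untreated replicates 1 to 3 and 76.5, 65.6 and 90.4 FPKM in tamoxifen replicates 1 to 3. The sums overlapped between the groups, as did the FPKM of each of the 4 genes, while the share of each of the 4 genes did not. The shares add up to a fixed whole, so a lower share of any gene raises the others. They are therefore not 4 separate results. Id2 made up 34.9%, 32.9% and 44.1% of the sum in untreated samples and 12.8%, 20.0% and 27.8% in tamoxifen samples. Id3 made up 37.8%, 38.8% and 25.7% and then 59.2%, 52.0% and 45.3% in the same order. The share of Id1 was 24.4%, 25.2% and 26.7% in untreated and 23.1%, 23.4% and 21.9% in tamoxifen samples, and that of Id4 was 2.87% to 3.47% and 4.58% to 4.9%. Id1 and Id2 thus held smaller shares and Id3 and Id4 larger ones in the tamoxifen samples. The ratio of Id2 to Id3, which no scaling of a whole sample can alter, was 0.922, 0.847 and 1.72 in untreated samples and 0.217, 0.385 and 0.614 in tamoxifen samples. These ratios did not overlap between the groups. The shares and ratios rest on genes whose deposited FPKM lay outside its own deposited interval, Id1 and Id3 in 6 samples and Id2 in 5. The cause was not tested. The ratios were chosen after the values had been seen, and so they are given with no test. The shares were not among the planned results and are given with no test as well.

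**Figure D3:**
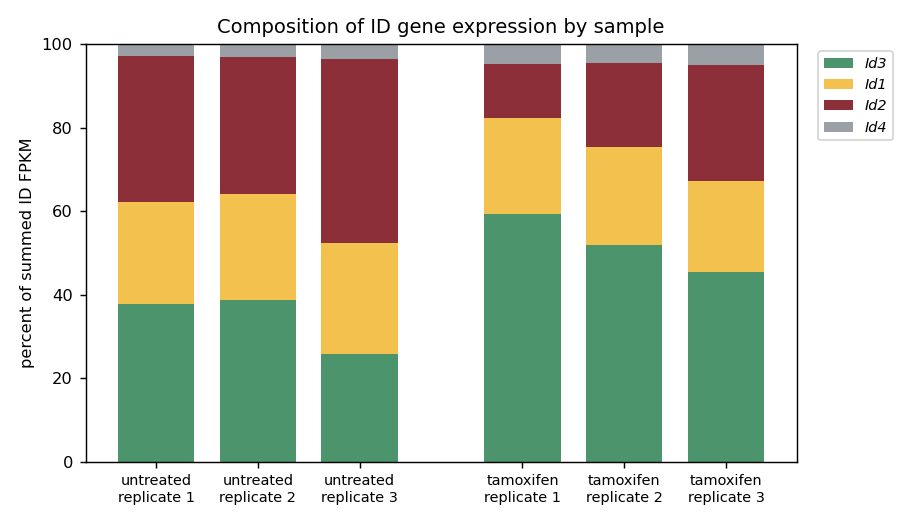
Share of each ID gene in the summed FPKM of the 4 ID genes (percent, stacked bars) in each of the 6 samples. Id3 takes 25.7% to 38.8% of the sum in untreated samples and 45.3% to 59.2% in tamoxifen samples, and Id2 takes at least 32.9% in untreated and at most 27.8% in tamoxifen samples.

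The inhibitory SMADs were both slightly lower in each tamoxifen sample than in its partner. Smad7, on chromosome 18 from 75527019 to 75555588, had 20.0, 24.5 and 24.8 FPKM untreated and 15.4, 23.8 and 20.0 FPKM after tamoxifen. Its log2 fold change was -0.24 (standard error 0.23, limma adjusted p = 0.999; adjusted p = 0.175 with the block). Smad6, on chromosome 9 from 63800883 to 63869866, is the inhibitory SMAD more selective for BMP receptors, and it had 4.98, 3.29 and 3.71 FPKM untreated and 3.92, 2.81 and 2.93 FPKM after tamoxifen. Its log2 fold change was -0.3 (standard error 0.27, limma adjusted p = 0.999; adjusted p = 0.168 with the block). Smad7 was 3.92 to 8.47 times as high as Smad6, with similar ratios in both groups.

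Bmp4, Bmp8b and Id4 share part of their locus with Gm15217, Oxct2b and A330033J07Rik, respectively, and the other 7 members share none with a listed gene. The libraries were directional, but the strand setting of the quantification is not given in the sources used here, so reads of an overlapping pair may not be separated.

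Beyond the 10 members, 77 other BMP pathway genes were listed by role, of which 58 passed the filter. Without a block, 0 of the 58 passed the test in either direction and 6 had an unadjusted p under 0.05 (limma). With the replicate block, 10 were lower and 2 higher, against 6.06% and 4.33% of all genes tested. Without replicate number 2 the blocked fit gave 0 lower and 0 higher of 52 pathway genes tested. Over all genes the calls also fell in that fit, from 787 to 66 lower and from 563 to 45 higher. Bmp6 and Cdx2 were not tested there, as too few of their samples reached the filter. With quantile normalization the blocked fit gave 6 lower and 0 higher. Negative log2 fold changes were found for 45 of the 58 and for 52.8% of all genes, with medians of -0.255 and -0.019. The strip plot of pathway genes by role shows where the 12 called genes lie. Of these 12, Bmp6 and Cdx2 entered the tests only through their untreated samples. The count of 10 lower genes includes them and is therefore given as a description.

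**Figure D4:**
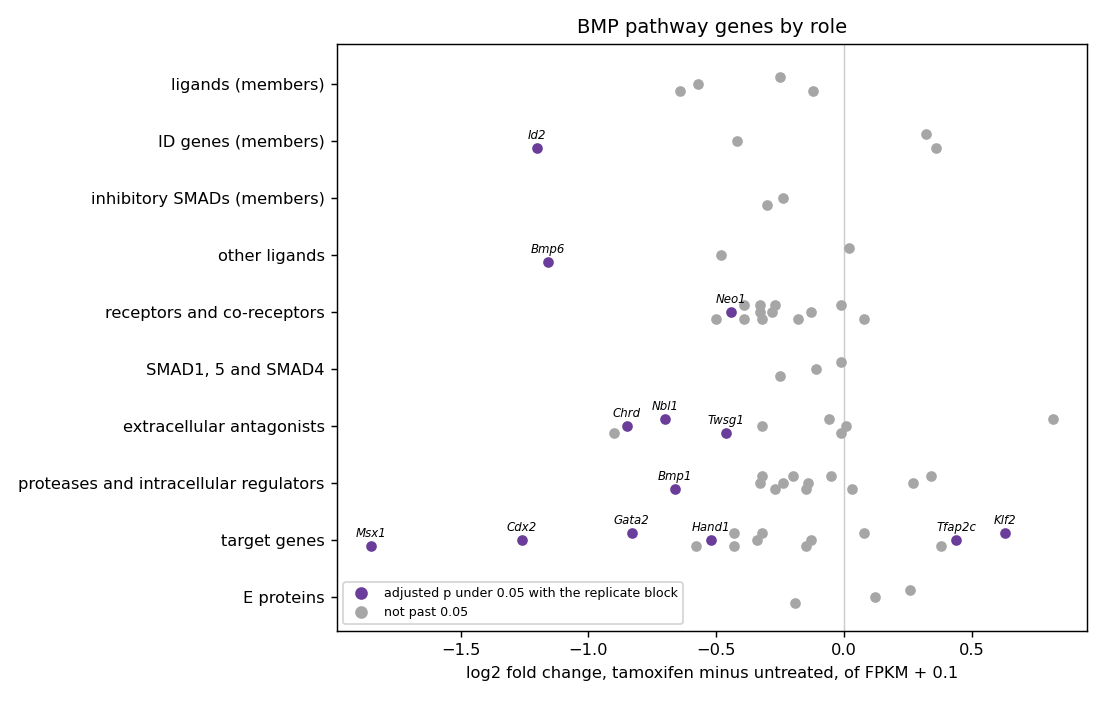
log2 fold change (tamoxifen minus untreated, no block) of the 10 members and the 58 other tested pathway genes, 1 point a gene, grouped by role, with genes past an adjusted p of 0.05 in the fit with the replicate block in purple and named. Msx1 lies farthest to the left at -1.85, and Klf2 and Tfap2c are the named genes to the right of 0.

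Of the other ligands, Gdf3, an ESC-expressed member of the family that can inhibit BMPs, had the highest level with 61.7 ± 25.5 FPKM untreated and 60.5 ± 13.3 FPKM after tamoxifen (SD, n = 3), a log2 fold change of 0.02. Bmp6 was 1 of 3 other ligands tested and fell with the block from 1.03 ± 0.0906 to 0.408 ± 0.0496 FPKM (SD, n = 3; log2 fold change -1.16, limma adjusted p = 0.0222 with the block and 0.505 without). All 3 tamoxifen samples of Bmp6 were under the 0.5 FPKM of the filter, so it was tested only through the untreated samples. Its lower level is therefore given as a description. Bmp10 and Gdf2 were listed at 0 in all 6 samples.

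All 13 receptor and co-receptor genes were tested and 12 had a negative log2 fold change (52.8% of all genes), with a median of -0.323 (-0.019 over all genes). With the block 1 of the 13 passed, against 10.4% of all genes. This was the BMP co-receptor gene Neo1, which fell from 12.4 ± 4.24 to 9.21 ± 3.48 FPKM (SD, n = 3; log2 fold change -0.44, limma adjusted p = 0.0444). The highest were the type I receptor gene Bmpr1a with 25.5 ± 8.01 and 19.8 ± 7.23 FPKM (SD, n = 3; limma adjusted p = 0.0618 with the block) and Eng, an auxiliary receptor, with 12.4 ± 0.685 and 10.3 ± 1.63 FPKM. Of the signal-carrying SMADs, Smad4 had 23.5 ± 3.91 and 19.7 ± 2.67 FPKM and Smad1 had 9.22 ± 1.2 and 8.48 ± 0.642 FPKM (SD, n = 3), and 0 of the 3 tested passed with or without the block, and 0 had an unadjusted p under 0.05 without it (limma). Smad9 stayed under the filter.

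Of 9 extracellular antagonists tested, 3 fell with the block (6.06% of all genes). They were Chrd, which encodes the ligand trap chordin (1.81 ± 0.726 to 0.924 ± 0.206 FPKM, log2 fold change -0.85), Twsg1, a chordin cofactor (20.5 ± 5.17 to 14.9 ± 3.21 FPKM, -0.46), and Nbl1 (5.26 ± 1.64 to 3.17 ± 0.83 FPKM, -0.7; SD, n = 3 each). Their limma adjusted p with the block was 0.0346, 0.0373 and 0.026. Fstl1, the highest of the list, lay between 27.9 and 48.7 FPKM in untreated and between 24.9 and 42.2 FPKM in tamoxifen samples. Among 12 proteases and intracellular regulators, Bmp1, which despite its name encodes a procollagen and chordin protease, fell with the block from 13.7 ± 4.46 to 8.44 ± 1.83 FPKM (SD, n = 3; log2 fold change -0.66, limma adjusted p = 0.0166). The corepressor gene Tgif1 (98.2 ± 24.5 and 94.0 ± 19.5 FPKM) and the phosphatase gene Ppm1a (49.6 ± 7.63 and 50.3 ± 3.49 FPKM; SD, n = 3) had the highest levels and log2 fold changes of -0.05 and 0.03.

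Of 15 other target genes tested, 4 fell and 2 rose with the block (6.06% lower and 4.33% higher over all genes). Both rises, of Klf2 and Tfap2c, did not pass with the block and quantile normalization or without replicate number 2. The 4 falls did not pass without replicate number 2 either, where Cdx2 was not tested. Msx1, a homeobox gene induced by BMP in many tissues, had 1.75, 1.01 and 1.9 FPKM in untreated replicates 1 to 3 and 0.242, 0.32 and 0.508 FPKM in tamoxifen replicates 1 to 3. The groups did not overlap, and the log2 fold change of -1.85 (standard error 0.39) had a limma adjusted p of 0.39 without and 0.00949 with the block. Cdx2 fell from 1.26 ± 0.514 to 0.445 ± 0.0448 FPKM, Gata2 from 5.05 ± 1.21 to 2.89 ± 1.19 FPKM and Hand1 from 11.6 ± 4.9 to 7.96 ± 3.1 FPKM (SD, n = 3), with limma adjusted p of 0.0312, 0.0172 and 0.0253 with the block. These encode transcription factors of extraembryonic and mesodermal cells. Cdx2 was under the 0.5 FPKM of the filter in all tamoxifen samples and was tested only through the untreated ones. Its lower level, and the count of 4 that includes it, are therefore given as a description. Msx1 reached 0.5 FPKM after tamoxifen in replicate 3 alone. Klf2, a pluripotency factor, rose from 67.1 ± 7.7 to 106 ± 26.2 FPKM (SD, n = 3; limma adjusted p = 0.0318 with the block). Tfap2c, a trophoblast and germ cell factor, had 59.9, 30.1 and 35.0 FPKM in untreated and 70.5, 46.8 and 47.7 FPKM in tamoxifen replicates 1 to 3, and rose with the block (log2 fold change 0.44, limma adjusted p = 0.0412). The E protein genes, whose products ID proteins bind, had log2 fold changes of 0.26 for Tcf3 (40.0 ± 8.55 and 47.5 ± 6.91 FPKM), 0.12 for Tcf4 and -0.19 for Tcf12 (12.7 ± 3.63 and 11.3 ± 4.14 FPKM; SD, n = 3). None of the 3 passed, with or without the block, and 0 had an unadjusted p under 0.05 without it (limma).

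Levels of some members also followed the replicate number, and those of others did not. Id2 deviated from its group mean by -0.36, -0.47 and 0.84 (log2) in untreated replicates 1 to 3 and by -0.59, -0.17 and 0.76 in tamoxifen replicates 1 to 3, so that number 3 was the high one in both groups. For Bmp7 number 1 was high (0.73 and 0.68) and number 3 low (-0.85 and -0.49). For Bmp8b number 2 was high (0.73 and 0.39) and number 1 low (-0.69 and -0.33). Bmp4 did not follow the number, with number 1 at -0.41 in untreated and 0.08 in tamoxifen samples. Nor did Id3, with number 1 at -0.11 and 0.19. The 12 fibroblast markers, which would come with feeder cells, summed to 59.5, 136 and 156 FPKM in untreated replicates 1 to 3 and to 90.0, 121 and 114 FPKM in tamoxifen replicates 1 to 3. Acta2, the highest of the list, had 14.6, 25.8 and 66.9 FPKM and then 40.1, 15.6 and 32.3 FPKM in the same order. The sum was thus highest in untreated replicate 3, as Acta2 was. Col1a1 lay between 15.6 and 40.3 FPKM and was highest in replicate 2 of both groups. Of the 12, 3 had a mean under 1 FPKM. With the block 1 of the 11 tested, Twist1, was lower and 0 were higher (6.06% and 4.33% of all genes). The part of feeder cells in the member values was not tested.

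Markers of other cell types were counted in the same way. With the block, 3 of 5 primitive endoderm markers tested (Gata6, Gata4 and Lama1), 3 of 6 trophoblast markers (Cdx2, Eomes and Hand1) and 3 of 4 neural markers (Sox1, Pax6 and Nes) were lower and 0 were higher, against 6.06% lower and 4.33% higher over all genes. Over all marker lists the block gave 10 lower, and 0 lower of 34 tested without replicate number 2. Over all genes the lower calls fell in that fit from 787 to 66. Gata6 and Cdx2 were not among the 34. Gata6 and Cdx2 were under the 0.5 FPKM of the filter in all tamoxifen samples, so they were tested only through the untreated samples. The counts that include them are therefore given as a description. The mesendoderm list had 1 gene tested, T, and it did not pass. Of 10 ESC markers 1, Dppa3, was higher, from 29.8 ± 14 to 79.8 ± 45.6 FPKM (SD, n = 3), and 0 were lower. The summed levels were 11.2 to 15.8 FPKM untreated and 7.06 to 12.5 FPKM after tamoxifen for the 8 primitive endoderm markers, 27.7 to 49.7 and 25.8 to 39.1 FPKM for the 7 trophoblast markers, 1.82 to 2.56 and 1.57 to 2.54 FPKM for the 6 mesendoderm markers, and 70.1 to 93.3 and 67.1 to 80.2 FPKM for the 7 neural markers. None of these markers was at 0 in all 6 samples. Without a block 0 of them passed (limma), and 1 ESC, 1 fibroblast, 2 primitive endoderm, 1 trophoblast, 0 mesendoderm and 3 neural markers had an unadjusted p under 0.05. Hand1 and Cdx2 are in the target list as well. The part of these cell types in the values of Id2 and the other members was not tested.

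The gene whose pattern over the 6 samples was most like that of Id1 was Anxa5, which encodes a phospholipid-binding annexin (Pearson's r = 0.998 on the log2 scale, 12996 genes compared). It had 33.2, 31.8 and 63.4 FPKM in untreated replicates 1 to 3 and 30.9, 27.2 and 34.5 FPKM in tamoxifen replicates 1 to 3. Sri (r = 0.988), Kctd10 (r = 0.984), Akt1s1 (r = 0.982) and 0610040J01Rik (r = 0.979) followed. All 5 were highest in untreated replicate 3, as Id1 was. Among the members Bmp2 (r = 0.907, rank 65) and Id2 (r = 0.861, rank 160) were closest to Id1, Id3 was at r = 0.036 and Bmp7 was the only negative one at r = -0.336. These correlations share 6 libraries, of which 1 sets the pattern, and are given as a description.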

How the data were processed

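PolyA+ RNA of the 6 RNA-seq samples was sequenced as directional libraries. Alignment to mm9 was done by the authors with Tophat2 (v0.5), and they quantified refGene models with cuffdiff (v2.1.1), as their methods state. They deposited 1 table per sample with an FPKM, an interval and a status per gene row, in the layout of Cufflinks. The deposited intervals were used only to judge precision: their half-width was 5.23% to 7.55% of the midpoint for Smad7 and 25.0% to 33.3% for Bmp2. For Id1 and Id3 in 6 samples and Id2 in 5 the deposited FPKM lay outside its own interval, and the cause was not tested.

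Rows of the same gene name were summed, and 6 names with a failed status in any sample were left out (0 members). The 12997 genes that reached 0.5 FPKM in 3 or more of the 6 samples entered the tests. Values were put on a log2(FPKM + 0.1) scale, and limma 3.58.1 (R 4.3.3) compared the groups (eBayes with trend, Benjamini-Hochberg adjustment, threshold 0.05). For low genes the added 0.1 makes a fold change too small. Other calculations used Python 3.11.15. The fits were run on simulated data with known differences, built-in replicate effects and the same noise level for all genes. This checks that the code recovers known differences and not how the fits behave with the noise of these data. Same-numbered samples, described as biological triplicates, had deviations from their group means that correlated at r = 0.544, 0.605 and 0.506 across genes for numbers 1, 2 and 3. From these values the numbers in the labels were taken to pair the samples. Samples of different numbers were at -0.379 to -0.105. Deviations within a group cancel out for each gene, so positive values at the same number make the others negative on average, and these are not separate evidence. A fit with the number as a block was run beside the main one.

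Members, lists and tests were chosen with earlier results of these data known. Named genes are the 10 members, other pathway genes past the threshold in either fit, the 2 highest of each role, the 5 genes most like Id1 over the 6 samples, and Kdm2b. Genes named outside this rule were chosen after their values were seen.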

Additional observations from a re-analysis of the deposited data

How the results depend on the processing

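The replicate block changed most counts. With it 563 genes were higher and 787 lower, against 3 and 1 without, and 1 member, 10 other pathway genes and 10 markers were lower and 0, 2 and 1 higher. With the block and quantile normalization 558 and 586 genes passed, with 1 member, 6 pathway genes and 8 markers lower and 1 marker higher. Alternatives added after seeing the data were the block with a pseudocount of 1 (659 and 931 genes; 2 members, 11 pathway genes and 10 markers lower; 2 pathway genes and 1 marker higher), the block with loci under 300 bp left out and scaling to TPM (421 and 1190 genes; 2 members, 13 pathway genes and 10 markers lower; 1 pathway gene and 1 marker higher) and the block without 1 replicate number. Without numbers 1, 2 and 3 this gave 785, 45 and 444 genes higher and 1078, 66 and 578 lower, 1 to 4 members lower, 0 to 11 pathway genes and 0 to 8 markers lower, and 0 to 2 pathway genes and 1 to 2 markers higher. Number 2 gave the fewest genes and number 1 the most members. Without a block, leaving out samples gave 0 to 5 genes higher and 0 to 7 lower, a filter of 1 FPKM or more in each sample gave 0 and 0, and a pseudocount of 1 gave 0 lower. The median log2 fold change of the members lay between -0.495 (without replicate 1) and -0.176 (scaled to TPM). With samples left out its highest value was -0.186 (without untreated replicate 3), and it was -0.423 without tamoxifen replicate 1. Of 252 member values under the 26 alternatives, 239 kept their direction and side of the threshold and 12 passed only with the block. Bmp2 turned to 0.01 without tamoxifen replicate 2, and its lowest value was -0.34, without untreated replicate 2. Id2 passed in each of the 7 fits with the block and in none without. The block changed no other member's call in the planned fits. Scaling to TPM moved the median of all genes from -0.019 to 0.081, and with loci under 300 bp left out to -0.105. The filter still asked for 3 samples when samples were left out, and Bmp2 was under it in 7 such settings and under the filter of 1 FPKM. The cause of these shifts was not tested. Depth is unknown and limits Bmp2 most, as its intervals show.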

Other observations

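Grem1, which encodes the BMP antagonist gremlin 1, and Nog, which encodes noggin, were chosen after their values were seen. Grem1 had 3.23, 19.6 and 17.3 FPKM in untreated replicates 1 to 3 and 0.809, 14.1 and 13.5 FPKM in tamoxifen replicates 1 to 3, so that replicate 1 was far below the others in both groups. Col1a1, a fibroblast marker, had 15.6, 40.3 and 31.2 FPKM and then 19.3, 38.2 and 29.7 FPKM in the same order. Nog had 0.536, 0.562 and 0.869 FPKM in untreated and 2.11, 1.12 and 0.724 FPKM in tamoxifen replicates 1 to 3, higher in replicate numbers 1 and 2 and lower in number 3. In the blocked limma fit the adjusted p was 0.0755 for Grem1 and 0.177 for Nog. The part of feeder cells in the Grem1 values was not tested.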
